A study of Mus musculus with 4 samples.

Results

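The LIF and STAT3 signalling genes are 10 of the 53379 genes quantified in the series, taken by exact gene symbol: *Lif*, *Lifr*, *Il6st*, *Jak1*, *Stat3*, *Socs3*, *Bcl3*, *Pim1*, *Ptpn11* and *Junb*. Each symbol matched 1 gene, and all 10 were among the 19148 genes with enough counts for a test. RNA was sequenced from DKO741, 1 *Terc* -/- line of E14 mouse embryonic stem cells (mESCs) in which both alleles of the telomerase RNA gene were replaced, at population doubling 100 (PD100, pre-ALT, before alternative lengthening of telomeres) and at PD800 (post-ALT, descended from rare survivors of telomere crisis), with 2 libraries of each. All 4 libraries carry the knock-out, so that PD800 is compared with an earlier stage of the same line and not with *Terc* +/+ cells. The sample titles count population doublings while the label on treatment speaks of passages 100 and 800. The cells were grown without feeders before RNA extraction, having been maintained on mouse embryonic fibroblasts. The LIF supply of the medium is not given in the sources used here.

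LIF, leukaemia inhibitory factor, is the cytokine that keeps mESCs self-renewing in culture. It binds a receptor made of LIFR and gp130 (the product of *Il6st*), the kinases bound to this receptor phosphorylate STAT3, and STAT3 then enters the nucleus and raises transcription of its targets. Among these targets is *Socs3*, whose product feeds back to inhibit the receptor complex, while SHP2 (the product of *Ptpn11*) links the same receptor to the ERK branch. In mESCs the STAT3 branch favours the naive state and the ERK branch favours its exit.

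In PD800 cells, 3 of the 10 genes were higher (*Lifr*, *Il6st* and *Socs3*) and 3 were lower (*Junb*, *Pim1* and *Lif*) at an adjusted p under 0.01. Both receptor chains rose, by 1.70-fold for *Lifr* and 1.49-fold for *Il6st*, and *Socs3* rose by 1.56-fold. *Junb* was 4.88-fold lower, *Pim1* 1.67-fold lower and *Lif*, the ligand, 1.61-fold lower. The kinase *Jak1*, the phosphatase *Ptpn11*, the transcription factor *Stat3* and the co-regulator *Bcl3* did not pass the test. Of all tested genes, 13.1% were higher and 15.4% lower at the same threshold, and 6.28% were higher and 8.81% lower when a fold change over 2 was also asked for. By that stricter rule 0 of the 10 genes were higher and only *Junb* was lower. The median log2 fold change was -0.25 over the 10 genes and 0.01 over all tested genes. Counts were compared between the groups with edgeR's quasi-likelihood test (Benjamini-Hochberg adjustment over all tested genes), in which 2 libraries stand against 2. An exact permutation test of a single gene with this number of libraries cannot give a two-sided p below 0.333, so that every p rests on the spread edgeR estimates across genes.

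The regions before the transcription starts are shown for *Junb* and *Pim1*, the members with the strongest decreases, and for *Socs3*, which rose and whose window holds a STAT motif. They are RefSeq promoter windows of build GRCm38.p6, printed 5′ to 3′ on the gene's strand from 250 bases before the start up to the first base that GENCODE M21 places in an exon. All windows (250 bases before to 50 after a start) were searched for TTCNNNGAA, the STAT motif, for TGANTCA, the AP-1 motif, and for TGACGTCA, the cyclic AMP response element. Each of these motifs reads the same on both strands, and no matches overlapped. Capitals mark the motif.
*Junb* (chr8:84978749-84978998, minus strand): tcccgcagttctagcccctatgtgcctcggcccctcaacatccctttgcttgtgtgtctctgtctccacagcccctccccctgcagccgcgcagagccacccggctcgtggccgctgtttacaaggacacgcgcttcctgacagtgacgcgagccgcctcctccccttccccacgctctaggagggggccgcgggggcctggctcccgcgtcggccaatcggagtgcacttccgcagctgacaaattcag
*Pim1* (chr17:29490535-29490752, plus strand): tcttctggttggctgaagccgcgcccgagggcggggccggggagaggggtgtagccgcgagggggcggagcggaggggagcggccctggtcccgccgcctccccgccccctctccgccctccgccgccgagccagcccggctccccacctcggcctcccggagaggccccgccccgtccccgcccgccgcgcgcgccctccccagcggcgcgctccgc
*Socs3* (chr11:117969452-117969616, minus strand): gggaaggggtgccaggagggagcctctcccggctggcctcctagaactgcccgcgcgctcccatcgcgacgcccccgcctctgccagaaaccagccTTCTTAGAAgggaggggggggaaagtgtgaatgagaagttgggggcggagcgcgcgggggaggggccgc

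RefSeq gives *Pim1* a further start downstream, whose window is not shown. The windows of *Junb* and *Pim1*, that one included, held 0 of the 3 motifs. In *Socs3* the STAT motif lay at 117969512 to 117969520, 154 bases before the RefSeq start, inside the longer gene that GENCODE annotates from 117966079 to 117970047 but outside its exons. This motif is found in 8.3% of the 32851 promoter windows of all genes. The other matches among the members are shown with 10 bases on each side. They were an AP-1 motif in *Lif* (chromosome 11, 4257340 to 4257346, plus strand), present in 7.81% of all windows, and a cyclic AMP response element in *Jak1* (chromosome 4, 101265317 to 101265324) and in *Ptpn11* (chromosome 5, 121191457 to 121191464), both on the minus strand, present in 1.79% of all windows.
*Lif*: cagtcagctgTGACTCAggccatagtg
*Jak1*: gagcagcttcTGACGTCAcgggggctgg
*Ptpn11*: cggcgcgcgaTGACGTCAcgcaggcgcc
A match is a sequence of letters only, and binding was not measured here.

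The libraries held between 32454092 and 38492096 expected counts (estimated read pairs per gene, in which reads shared by several genes are divided). A floor of 3 counts corresponded to between 0.0743 and 0.0933 CPM (counts scaled to the library total, adjusted by edgeR's TMM factors) and allows for counting error alone. The deleted gene *Terc* had 1 count in PD100 replicate 1 and 0 in the other 3 libraries. Mitochondrial and small non-coding RNAs made up 22.04% to 23.4% of counts at PD100 and 27.7% to 28.3% at PD800. The mESC label held in both groups: the summed level of 8 mESC markers, *Pou5f1*, *Sox2* and *Nanog* among them, was 1497 and 1800 TPM (transcript abundance scaled for length and library total) in PD100 and 2134 and 2182 TPM in PD800. Of these 8, 4 rose (*Nanog*, *Esrrb*, *Utf1* and *Tdgf1*) and 0 fell. The highest level was that of *Dppa5a*, at 682 and 1068 TPM in PD100 and at 1051 and 1156 TPM in PD800, and its change did not pass (adjusted p = 0.15 by edgeR). All 9 markers of primitive endoderm, *Gata6* and *Sox17* among them, fell, and their summed level was 241 and 262 TPM at PD100 against 14.65 and 14.95 TPM at PD800. The highest of them at PD100 were *Col4a1*, at 149.6 and 177.8 TPM, and *Lama1*, at 49.9 and 50.6 TPM. *Gata6* was at 4.06 and 3.14 TPM and *Sox17* at 9.36 and 9.56 TPM in the same libraries. For fibroblasts, the feeder cell type, 6 of the 9 tested markers of 10 listed fell. The summed level of all 10 was 13.6 and 13.7 TPM at PD100 and 3.31 and 3.46 TPM at PD800, and *Lum* had at most 1 count in any library. In bulk RNA, fewer cells of a type and less RNA per cell cannot be told apart, and the part of these cell types in the results below was not tested.

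*Lif* encodes the secreted ligand (ENSMUSG00000034394.14, chromosome 11, 4257557 to 4272514). It was the member with the lowest level, at 6.58 and 6.47 CPM in the PD100 libraries and 4.06 and 4.04 CPM in the PD800 libraries. Both PD800 libraries lay below both PD100 libraries, which was the case for 36.4% of all tested genes. The log2 fold change was -0.69 (standard error 0.13, 95% interval -0.998 to -0.38, adjusted p = 0.00669 by edgeR). The call was narrow: it was lost in DESeq2's Wald test (adjusted p = 0.0111), and without PD800 replicate 1 or 2 the log2 fold change was -0.68 in both cases, with an adjusted p of 0.063 and 0.0572 by edgeR. With expected counts of 266 and 216 at PD100 and of 146 and 130 at PD800, this gene also had the fewest reads behind its value. Fibroblasts are a known source of LIF, and 6 of the 9 tested fibroblast markers fell, as given above. Whether fibroblast RNA had a part in the value of *Lif* was not tested.

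*Lifr*, the ligand-binding receptor chain (ENSMUSG00000054263.12, chromosome 15, 7090614 to 7197489), was at 171 and 165 CPM in PD100 and at 291 and 279 CPM in PD800. It had the highest CPM of the 10 genes in every library, and both PD800 libraries exceeded both PD100 libraries, as did those of 37.4% of all tested genes. The log2 fold change was 0.77 (standard error 0.08, 95% interval 0.58 to 0.95, adjusted p = 0.000639 by edgeR). *Il6st* encodes gp130, the signal-transducing chain shared by the receptors of the interleukin-6 family (ENSMUSG00000021756.12, chromosome 13, 112464070 to 112510086). Its libraries were at 77.2 and 71.3 CPM in PD100 and at 109.7 and 111 CPM in PD800, again without overlap. The log2 fold change was 0.57 (standard error 0.08, 95% interval 0.38 to 0.76, adjusted p = 0.00204 by edgeR). Without PD800 replicate 1 or 2 it was 0.59 and 0.57, with an adjusted p of 0.0264 and 0.0275, so that this call was lost, while that of *Lifr* was kept (adjusted p = 0.00983 and 0.00541 by edgeR).

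**Figure D1:**
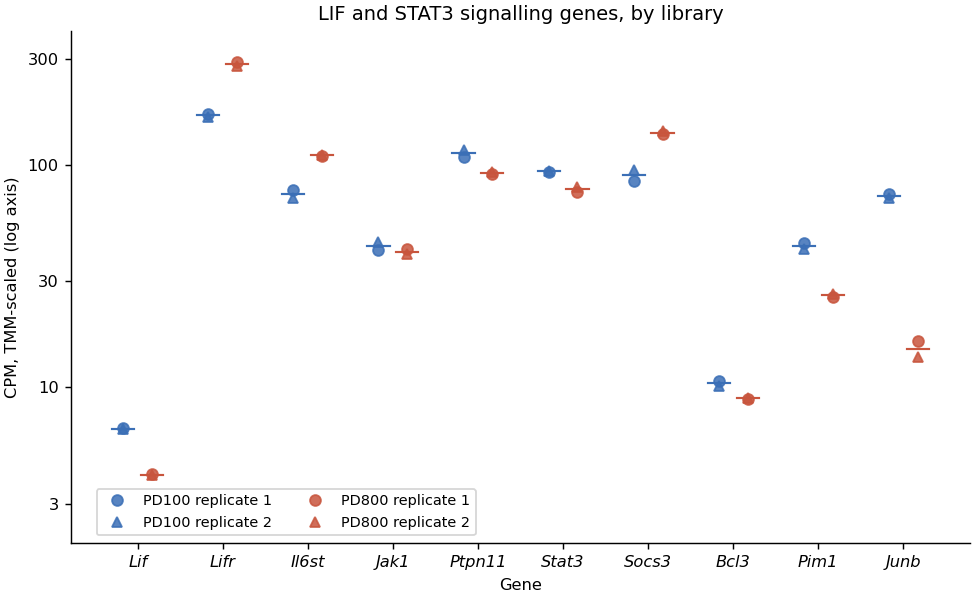
CPM (log axis) of the 10 genes in each of the 4 libraries, with PD100 in blue, PD800 in red, circles for replicate 1, triangles for replicate 2 and a line at the mean of each group. The groups overlap for *Jak1* alone, and the widest gap is that of *Junb*, at 71.4 and 74.1 CPM against 13.7 and 16.1 CPM. A lack of overlap was common: both PD800 libraries lay above both PD100 libraries for 37.4% of all tested genes and below them for 36.4%.

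Inside the cell, none of the 3 signal-carrying members passed the test. *Jak1*, a tyrosine kinase bound to gp130 (ENSMUSG00000028530.14, chromosome 4, 101152367 to 101265282), was at 41.4 and 45.2 CPM in PD100 and at 41.8 and 39.6 CPM in PD800. The groups overlapped, and the log2 fold change was -0.09 with a 95% interval of -0.29 to 0.12 (adjusted p = 0.438 by edgeR). *Ptpn11*, which encodes the phosphatase SHP2 (ENSMUSG00000043733.14, chromosome 5, 121130533 to 121191397), was at 108 and 117 CPM in PD100 and at 91.3 and 92.6 CPM in PD800. The libraries did not overlap, but the log2 fold change of -0.29 (95% interval -0.48 to -0.11) had an adjusted p of 0.0237 by edgeR. *Stat3* itself (ENSMUSG00000004040.16, chromosome 11, 100885098 to 100939540) was at 93.2 and 94.0 CPM in PD100 and at 75.6 and 79.7 CPM in PD800. Its log2 fold change was -0.27 (95% interval -0.45 to -0.09, adjusted p = 0.0263 by edgeR), and its libraries did not overlap either. With any 1 library left out, the log2 fold change ranged from -0.347 to -0.259 for *Ptpn11* and from -0.302 to -0.225 for *Stat3*. Whether either gene passed depended on which library was left out. These values are for RNA, and the phosphorylation through which the kinase and STAT3 act was not measured here.

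Of the induced genes, some rose and some fell. *Socs3*, the feedback inhibitor (ENSMUSG00000053113.3, chromosome 11, 117966079 to 117970047, the gene with the STAT motif shown above), was at 84.8 and 94.8 CPM in PD100 and at 138 and 142 CPM in PD800. The groups did not overlap, and the log2 fold change was 0.64 (standard error 0.08, 95% interval 0.44 to 0.85, adjusted p = 0.00184 by edgeR). Without PD800 replicate 1 or 2 it was 0.67 and 0.63 with an adjusted p of 0.0166 and 0.0182. *Junb*, an AP-1 transcription factor gene and immediate early gene (ENSMUSG00000052837.6, chromosome 8, 84974484 to 84978718), went the other way, from 74.1 and 71.4 CPM in PD100 to 16.1 and 13.7 CPM in PD800. Its log2 fold change of -2.29 (standard error 0.10, 95% interval -2.54 to -2.04, adjusted p = 6.5e-05 by edgeR) was the largest of the 10. Leaving out any 1 library gave values from -2.40 to -2.17.

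*Pim1* encodes a serine/threonine kinase that supports survival and self-renewal (ENSMUSG00000024014.7, chromosome 17, 29490753 to 29496112). Its libraries were at 44.6 and 42.0 CPM in PD100 and at 25.5 and 26.3 CPM in PD800. The log2 fold change was -0.74 (standard error 0.08, 95% interval -0.93 to -0.55, adjusted p = 0.000817 by edgeR). Without PD800 replicate 1 or 2 it was -0.71 and -0.76 with an adjusted p of 0.0141 and 0.0107. *Bcl3*, an atypical IκB protein that acts as a transcriptional co-regulator (ENSMUSG00000053175.17, chromosome 7, 19808462 to 19822770), was at 10.7 and 10.1 CPM in PD100 and at 8.87 and 8.96 CPM in PD800. It lay lower in both PD800 libraries, but the log2 fold change of -0.23 (95% interval -0.46 to 0.01) did not pass the test (adjusted p = 0.103 by edgeR). Of the 4 induced members, 1 thus rose, 2 fell and 1 did not pass.

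**Figure D2:**
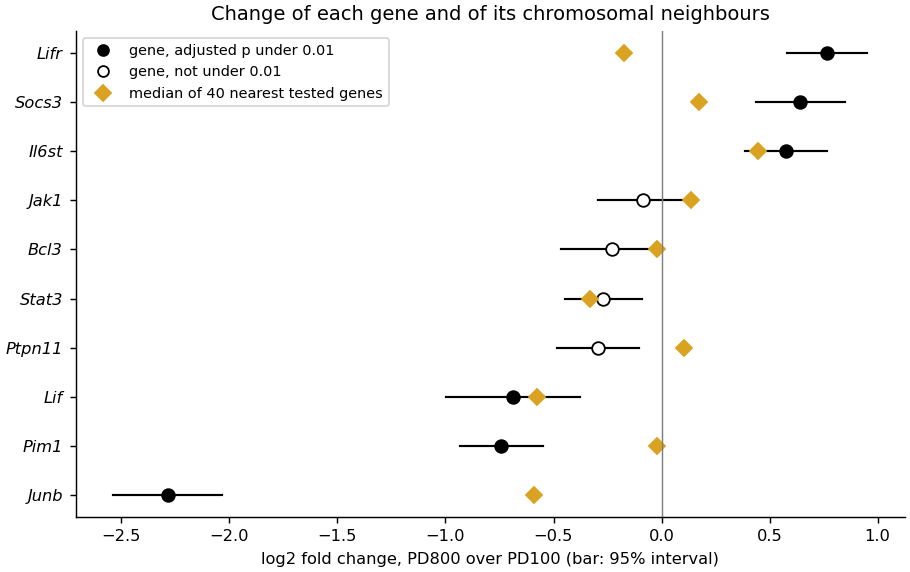
Difference between PD800 and PD100, as a log2 fold change, for the 10 genes (circles with 95% intervals from edgeR, filled where the adjusted p was under 0.01), beside the median log2 fold change of the 40 tested genes nearest to it on the chromosome (diamonds). The diamonds lie within the intervals for *Il6st*, *Stat3*, *Lif* and *Bcl3*, and outside them for the other 6, with the widest gap at *Junb*.

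Since the study describes DNA copy-number changes that arose near chromosome ends in this line, the change of each gene was set beside that of its 40 nearest tested genes. For *Lif*, *Il6st* and *Stat3* the median of the neighbours lay close to the value of the gene. The neighbours of *Lif* had a median log2 fold change of -0.57, those of *Il6st* a median of 0.45 and those of *Stat3* a median of -0.33. Of the 40 neighbours, 15 had a value at least as far in the same direction as *Lif*, 15 as *Il6st* and 23 as *Stat3*, whether or not they passed the test. At an adjusted p under 0.01 by edgeR, 14 of 40 fell near *Lif*, 13 rose near *Il6st* and 9 fell near *Stat3*. Around *Lifr* the median was -0.17, 4 of the 40 had a value at least as high as that of *Lifr*, and 2 rose. *Pim1* lay among genes with a median of -0.02, of which 6 were at least as low. The median near *Junb* was -0.59, with 22 of 40 neighbours lower at an adjusted p under 0.01 by edgeR, and 1 of the 40 had a value as low as that of *Junb* or lower. *Socs3* lies 4.001 Mb from the last annotated base of chromosome 11, and its neighbours had a median of 0.17, with 8 of 40 at least as high. *Il6st* lies 7.81 Mb from that of chromosome 13, and each of the other 8 members lies at least 21.03 Mb from that of its chromosome. Around the members that did not pass, the medians were 0.14 for *Jak1*, 0.10 for *Ptpn11* and -0.02 for *Bcl3*. With all tested genes within 2.5 Mb on each side in place of the nearest 40, the median was 0.28 near *Socs3*, 0.05 near *Pim1* and 0.02 near *Bcl3*, and so above 0 for *Pim1* and *Bcl3*. By this measure it was -0.47 near *Lif*, 0.49 near *Il6st*, -0.39 near *Stat3* and -0.48 near *Junb*. Near *Lifr* it was -0.22, near *Jak1* 0.16 and near *Ptpn11* 0.13. DNA was not analysed here, and the part of chromosomal position in these changes was not tested.

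TPM, which is scaled for gene length, allows the members to be set beside each other. At PD100, *Junb* was the highest at 33.0 ± 3.41 TPM (SD, n = 2), followed by *Socs3* at 28.3 ± 0.283, *Lifr* at 23.5 ± 1.56 and *Stat3* at 18.9 ± 0.863 TPM. *Ptpn11* at 15.3 ± 0.0849, *Pim1* at 12.96 ± 1.51, *Il6st* at 9.10 ± 1.04, *Jak1* at 7.45 ± 0.283, *Bcl3* at 5.66 ± 0.778 and *Lif* at 2.0 ± 0.184 TPM came after them. No neighbours in this order overlapped between their libraries. At PD800, *Socs3* was the highest at 37.1 ± 0.474 TPM (SD, n = 2) and *Lifr* followed at 32.2 ± 2.08 TPM, while *Stat3* was at 13.04 ± 0.276 TPM. Then came *Il6st* at 10.8 ± 0.375 and *Ptpn11* at 10.5 ± 0.304 TPM, whose libraries overlapped, and *Pim1* at 6.56 ± 0.106 TPM. *Jak1* at 5.88 ± 0.509 and *Junb* at 5.79 ± 0.834 TPM overlapped as well, and *Bcl3* at 4.17 ± 0.580 and *Lif* at 1.19 ± 0.0636 TPM were the lowest. Among the 19148 tested genes, *Junb* went from the 90.0th to the 64.8th percentile of TPM and *Lifr* from the 85.9th to the 91.4th.

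TPM values also depend on the mean transcript length that the authors' software assigned to a gene in each library. For *Lifr* this length was 6072 and 4867 bases in PD100 replicates 1 and 2 and 6266 and 5210 bases in PD800 replicates 1 and 2. Replicate 2 of each group thus had a shorter mean length, and its TPM (24.7 and 33.7) was above that of replicate 1 (22.4 and 30.7) although its CPM was lower. For *Lif* the length was 2906 bases in PD100 replicate 1 and between 2283 and 2319 bases in the other 3 libraries. The lengths of *Stat3*, which has 14 annotated transcripts in the files, spread by 4.52% between the lowest and the highest library, and those of *Socs3*, *Junb* and *Ptpn11* by 2.38% or less. On the log2(TPM + 1) scale, where the median of all tested genes was -0.12, *Lifr*, *Il6st* and *Socs3* were at 0.44, 0.23 and 0.38, and they no longer passed the test (adjusted p = 0.0261, 0.183 and 0.0208 by limma). *Lif*, at -0.46, did not pass either (adjusted p = 0.0287 by limma). *Pim1* and *Junb* passed on this scale too, at -0.88 and -2.33 (adjusted p = 0.00639 and 0.00152 by limma).

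**Figure D3:**
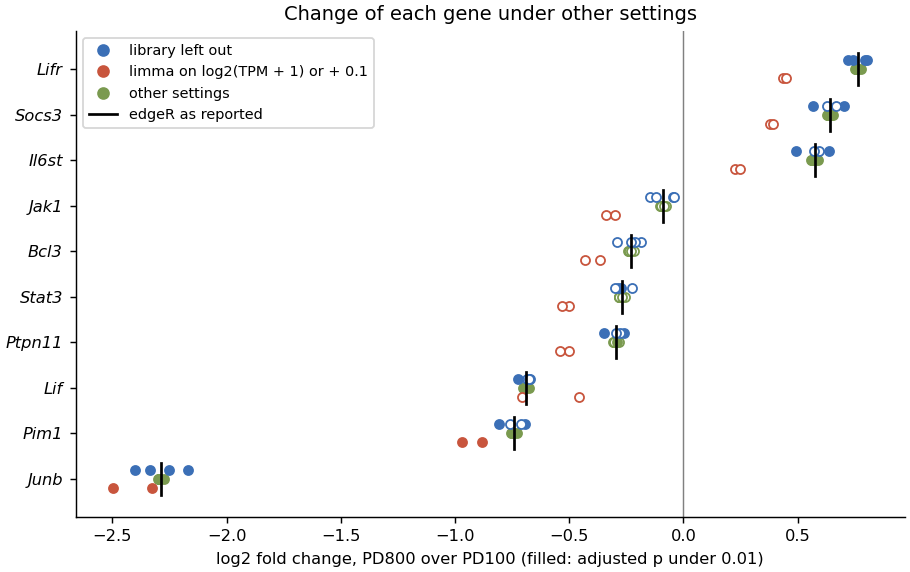
Values of the PD800 against PD100 log2 fold change of the 10 genes with edgeR as reported (black line), with 1 library left out (blue), with limma on TPM values (red) and under the other settings (green), with filled circles where the adjusted p was under 0.01. Each gene keeps its side of 0 in every setting, and the red circles of *Lifr*, *Socs3* and *Il6st* lie nearer to 0 than the black lines.

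The rest of the pathway was described with lists of its other genes, ordered from the ligands inwards and with no test of a list as a whole. Among 8 other ligands of the interleukin-6 family, 6 were tested, of which 2 fell and 0 rose, with a median log2 fold change of -1.22. *Clcf1*, which encodes cardiotrophin-like cytokine, was at -1.94 (adjusted p = 0.00493 by edgeR, and 0.0269 at a log2 fold change of -1.57 without PD800 replicate 1). *Osm*, oncostatin M, with 18 and 13 counts in the PD100 libraries, had 0 and 1 counts in those of PD800. It was at least 4.72-fold lower, taking the mean of the per-library floors for PD800 (adjusted p = 0.00475 by edgeR, and 0.0343 and 0.0104 without PD800 replicate 1 and 2). The call was also lost in DESeq2's Wald test (adjusted p = 0.0186) and on the log2(TPM + 1) scale (adjusted p = 0.018 by limma). The highest of this list, *Ctf2*, was at 1.26 and did not pass (adjusted p = 0.0515 by edgeR, but 0.0037 at a log2 fold change of 1.97 without PD100 replicate 1, and 0.00128 at 1.26 with no filter on low counts). Each of these ligands was low, with at most 2.49 TPM in any library.

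Of 5 other receptors of the family, 1 rose and 2 fell. *Cntfr*, the receptor of ciliary neurotrophic factor, rose by 1.41 on the log2 scale (adjusted p = 0.0022 by edgeR, but 0.0167 at 0.70 on the log2(TPM + 1) scale by limma). *Osmr*, the receptor chain that pairs with gp130 for oncostatin M, had a log2 fold change of -2.83 (adjusted p = 0.000854 by edgeR), and *Il27ra*, which pairs with gp130 for interleukin-27, one of -2.12 (adjusted p = 0.000823 by edgeR). *Osmr* was at 0.76 and 0.54 TPM in PD100 and at 0.07 and 0.04 TPM in PD800, far below *Lifr* and *Il6st* on the same scale.

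Of 9 other JAK and STAT genes, 1 rose and 4 fell, with a median log2 fold change of -0.32. *Jak2*, a kinase of several cytokine receptors, was at 2.92 and 2.55 TPM in PD100 and at 1.08 and 0.84 TPM in PD800, and fell by 1.28 on the log2 scale (adjusted p = 0.000541 by edgeR). The neighbouring genes *Stat5a* and *Stat5b* fell by 1.23 and 1.25 on the log2 scale (adjusted p = 0.0035 and 0.000887 by edgeR, and 0.0216 at a log2 fold change of -1.12 for *Stat5a* without PD800 replicate 1). Both lie beside *Stat3* on chromosome 11 and are among its 40 nearest tested genes described above. Reads that match both of these similar paralogs may have been assigned to either. *Stat4*, best known in lymphocytes, was the only one of this list to rise, by 1.69 on the log2 scale (adjusted p = 0.00104 by edgeR), from 2.64 and 1.76 TPM to 6.84 and 5.68 TPM.

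Among 14 other negative regulators, 4 rose and 2 fell, with a median log2 fold change of 0.11. *Socs5* and *Socs1*, relatives of *Socs3*, were the genes that fell, by 1.27 and 1.14 on the log2 scale (adjusted p = 0.000988 and 0.00633 by edgeR). The call of *Socs1* was lost without PD800 replicate 1 or 2, at -0.94 and -1.34 with adjusted p = 0.0421 and 0.0103. The highest change was that of *Pias3*, which encodes an inhibitor of activated STAT3, at 0.91 (adjusted p = 0.00302 by edgeR, and 0.012 at a log2 fold change of 0.85 without PD800 replicate 1, and 0.0154 at 0.60 on the log2(TPM + 1) scale by limma). In the ERK and PI3K branch, 3 of 13 genes rose and 2 fell, with a median of 0.07. *Pik3r1*, a regulatory subunit of PI3 kinase, rose by 1.00 (adjusted p = 0.0005 by edgeR, but 0.0325 at 0.44 on the log2(TPM + 1) scale by limma), and *Sos1*, an activator of RAS, fell by 1.15 on the log2 scale (adjusted p = 0.000596 by edgeR).

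The last list held 13 further genes that respond to LIF or STAT3 in mESCs, of which 3 rose and 7 fell, with a median log2 fold change of -0.56. The genes that rose were the transcription factor genes *Klf4*, *Tbx3* and *Tfcp2l1*, at 2.84, 2.23 and 1.22 (adjusted p = 5.2e-05, 7.2e-05 and 0.000157 by edgeR). *Tfcp2l1*, a direct target of STAT3, went from 14.9 and 13.6 TPM to 29.3 and 26.7 TPM. Those that fell by over 2-fold were *Egr1* and *Fos*, which are immediate early genes like *Junb*, the growth regulator gene *Myc*, and the kinase genes *Sgk1* and *Pim2*. Their log2 fold changes were -2.69 for *Egr1*, -1.81 for *Myc*, -1.58 for *Sgk1*, -1.58 for *Pim2* and -1.54 for *Fos* (adjusted p between 6.6e-05 and 0.00129 by edgeR). *Sgk1* had the highest level of the list at PD100, with 83.2 and 78.7 TPM, and was at 21.5 and 19.4 TPM in PD800. The list therefore held genes that moved in opposite directions, as did the induced members *Socs3*, which rose, and *Pim1* and *Junb*, which fell.

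**Figure D4:**
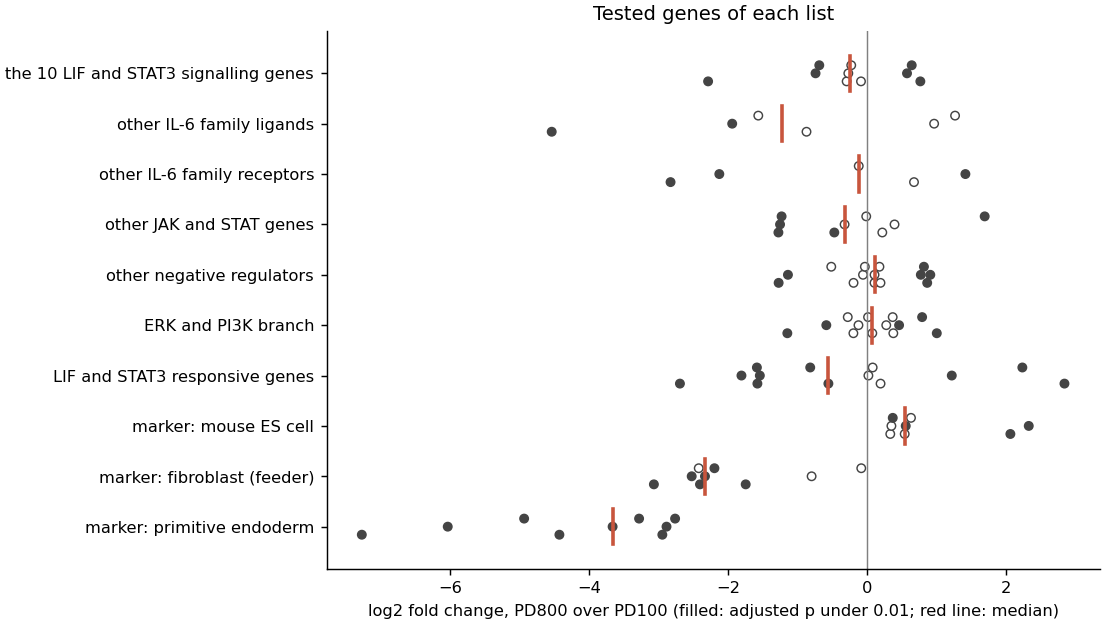
Differences between PD800 and PD100 (log2 fold change) for every tested gene of the 10 LIF and STAT3 signalling genes, of the other pathway lists and of the marker lists, filled where edgeR's adjusted p was under 0.01, with a red line at the median of each list. The 10 genes spread from -2.29 to 0.77 on both sides of 0, while the 9 primitive endoderm markers lie between -7.27 (fitted, *Foxa2* with 1 count in each PD800 library) and -2.76.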

How the data were processed

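RNA of 2 PD100 and 2 PD800 libraries was analysed, grouped by the population doubling in the labels. Reads were mapped by the authors with STAR 2.5.3a (mm10), and the RSEM 1.3.0 expected counts that they deposited were used, which are not scaled for depth. The authors also deposited TPM values, scaled for transcript length and to 1 total per library. The strand setting of the counting and the annotation release are not given in the sources used here.

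Rounded expected counts were tested with edgeR 4.0.16 under R 4.3.3 (genes kept by filterByExpr at min.count 10, TMM scaling, quasi-likelihood test, Benjamini-Hochberg adjustment over the 19148 tested genes). Standard errors and 95% intervals were derived from the quasi-likelihood F. The procedure was checked on simulated data. Coordinates are from GENCODE M21 (GRCm38, also called mm10), which holds all 10 genes when identifier versions are ignored. Promoter windows and their starts are from RefSeq (GRCm38.p6), which holds all 10 genes.

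The members and lists were chosen with earlier results of these data known. Outside the 10 members, genes named with values are those of the pathway lists past an adjusted p of 0.01 and a fold change over 2, the highest and the lowest of each pathway list, markers, and AP-1 genes chosen after the values of *Junb* were seen. A gene of the ligand list is not reported here and was left out of that list's counts. Alternatives were DESeq2 1.42.0, other normalisations and filters, the replicate number as a block, limma 3.58.1 on log2(TPM + 1) and log2(TPM + 0.1), other thresholds and each library left out. The study calls its replicates biological duplicates, and p-values measure only the spread between them.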

Additional observations from a re-analysis of the deposited data

How the results depend on the processing

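No member changed direction in any setting. When TPM values were tested by limma, with a pseudocount of 1 or of 0.1, and with medians of all tested genes of -0.12 and -0.21, 0 members were higher and 2 lower under both at an adjusted p under 0.01, against 3 and 3 with edgeR. An adjusted p under 0.05 gave 5 lower members. With each library left out in turn, between 1 and 3 members were higher and between 1 and 5 lower. The low ends came without either PD800 library, where the lone library was assumed to vary like the others and *Lifr* and *Junb* kept their calls. Same-numbered libraries deviated together across genes (correlation 0.349), but with 2 pairs and no label of a shared batch they were not taken as pairs. With the replicate number as a block, 3 members were higher and 4 lower, with *Ptpn11* as the addition (log2 fold change -0.29, adjusted p = 0.00751 by edgeR). Among other named genes, *Pik3r1*, *Cntfr* and *Pias3* lost their calls on TPM values with both pseudocounts and *Osm* with a pseudocount of 1, while *Ctf2* passed with the block (1.29, adjusted p = 0.00704 by edgeR). Without the filter on low counts, *Ptpn11* (adjusted p = 0.00887 by edgeR) and *Ctf2* passed. DESeq2's Wald test gave 3 higher and 2 lower members, without *Lif*. In a test against a 2-fold change, *Junb* was the 1 member called. Each member had at least 130 counts in every library.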

Other observations

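After the values of *Junb* were seen, the other AP-1 genes were also read, as a list with no test. All 7 (*Jun*, *Jund*, *Fos*, *Fosb*, *Fosl1*, *Fosl2* and *Atf3*) had lower levels in both PD800 libraries, with log2 fold changes from -3.75 for *Fosl2* to -0.85 for *Jund*. *Jun* was at 7.34 and 5.67 TPM in PD100 and at 1.36 and 1.26 TPM in PD800, and *Atf3* at 5.01 and 6.32 TPM against 0.39 and 0.28 TPM. *Jund* was the most abundant of these at PD800, at 18.4 and 20.8 TPM, above *Junb* at 6.38 and 5.20 TPM. At PD100 *Jund* also lay above *Junb*, by less, at 37.8 and 45.1 TPM beside 35.5 and 30.6 TPM.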
